A study of Mus musculus with 12 samples.

Results

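RNA of a synaptic density band from mouse cortex (SNF) was compared with RNA of the whole cortex homogenate (WCH), to ask which RNAs take a larger or smaller share of the band than of the tissue it was made from. The libraries were taken by their titles, 3 SNF and 3 WCH of the 12 libraries of the study. Every gene was a candidate, and 13137 of 29879 genes had enough counts to be tested. All mice carried the SNAP25 BacTRAP transgene and were 21 days old, and the tissue label of every library reads cortex. In such a line a ribosomal protein tagged with green fluorescent protein is made under the control of Snap25, a neuronal gene, so that tagged ribosomes can be pulled down. The SNF and WCH libraries were made without that pull-down and therefore hold RNA of every cell type, tagged or not. The WCH libraries carry the word TotalBrain as a second description. The labels do not say whether replicates came from separate animals or pools, so a p-value here speaks of the spread between these samples and no more.

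When brain tissue is sheared, nerve endings pinch off and reseal, often with a piece of the postsynaptic membrane attached, and they collect in a band on a density gradient together with mitochondria and fragments of glia and myelin. Neurons and glia place many mRNAs far from the cell body. An mRNA whose protein will be secreted or built into the plasma membrane is as a rule translated at the endoplasmic reticulum (ER), because a hydrophobic stretch near the protein's start, or its first membrane-spanning segment, brings the ribosome to the ER membrane as it emerges. Cytosolic proteins are made on free ribosomes. Tail-anchored proteins, whose lone membrane segment sits at the far end, are inserted after the ribosome has released them.

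The mitochondrially encoded ribosomal RNAs took 83.6%, 78.6% and 80.7% of the gene counts in SNF replicates 1 to 3 and 32.3%, 35.1% and 49.0% in WCH. Outside the mitochondrial genome, each SNF library held 1819853 to 2111322 counts and each WCH library 4462407 to 6032062. The groups did not overlap in either measure, for which an exact two-sided permutation test gives p = 0.1, the smallest possible with 3 against 3. SNF replicate 3 stood apart from the other SNF libraries. Reads in no annotated gene were taken as a share of those reads plus the gene counts outside the mitochondrial genome. That share was 35.4% in SNF replicate 3, against 16.3% and 18.2% in SNF replicates 1 and 2 and 36.6% to 43.6% in WCH. Levels below are CPM (counts scaled to a common library size) of RNA outside the mitochondrial genome, scaled by the trimmed mean of M-values (TMM), and a log2 fold change is SNF against WCH on that scale. A direction is therefore a statement about a gene's share of the RNA and is best read against the median of all tested genes, which was −0.24. That median was −0.11 with median-of-ratios scaling, −0.29 with upper-quartile scaling and −0.63 with the plain total. With the mitochondrial genes kept in a plain total it was −2.60, and 183 of the 2748 nonmitochondrial genes called higher then had a positive value.

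SNF differed from WCH in a large part of the transcriptome. At an adjusted p under 0.05 in edgeR's quasi-likelihood test, 38.2% of the tested genes were called, 2774 higher (21.1%) and 2250 lower (17.1%). Counts of calls in the gene groups below are to be read beside these shares. In 4932 of the called genes the 3 SNF values and the 3 WCH values did not overlap. A call with 3 libraries per group nearly implies this, so it adds no support, nor does it for single called genes below. The share without overlap among all tested genes is not given here. More of the higher calls were kept: 2064 of them were made in each of the 6 fits that left out 1 library, against 502 of the lower calls. The lower count was 784, 843 and 1292 without SNF replicate 1, 2 or 3 and 1549, 956 and 1012 without WCH replicate 1, 2 or 3. The median of all tested genes also moved in these fits, from −0.24. It was −0.13, −0.15 and −0.11 without SNF replicate 1, 2 or 3 and −0.23, −0.13 and −0.16 without WCH replicate 1, 2 or 3. Whether that shift has a part in the lower calls lost, here and in the groups below, was not tested. Higher genes were 55.2% of the calls, but 67.6% with median-of-ratios factors, 67.3% in DESeq2, 29.9% with the plain total outside the mitochondrial genome, 0.0961% with the mitochondrial genes kept in that total, and 60.1% to 76.3% with 1 library left out. In all, 406 nonmitochondrial genes were higher and 84 genes lower by over 4-fold.

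Among the 8 protein-coding genes of at least 20 CPM with the highest fold changes, 6 were mitochondrially encoded and the other two were Itgam and Col1a1. Itgam (chr7:128062640-128118491, GRCm38) encodes an integrin subunit of microglia and other myeloid cells. Its level was 133, 154 and 66.3 CPM in SNF and 11.4, 10.5 and 12.4 CPM in WCH (log2 fold change 3.36). The ranking at both ends took only called genes whose groups do not overlap, so the lack of overlap was set by the choice. In bulk RNA, more cells of a type and more RNA per cell cannot be told apart. Col1a1, a collagen chain of connective tissue, had 254, 323 and 93.5 CPM in SNF and 21.7, 15.9 and 32.6 CPM in WCH (log2 fold change 3.26, adjusted p = 0.0428 in edgeR), and its call was lost without SNF replicate 1 or 2 (3.32 and 2.98) and without WCH replicate 1, 2 or 3 (3.21, 3.15 and 3.67). At the other end stood Wsb1 (chr11:79239372-79254671), a subunit of a ubiquitin ligase, with 12.8, 6.19 and 15.4 CPM in SNF and 55.1, 71.6 and 61.2 CPM in WCH (log2 fold change −2.44). Rsrp1, an arginine- and serine-rich nuclear protein, fell by 2.11 on the log2 scale, the integrator subunit Ints6l by 2.0, the nuclear RNA-binding protein gene Rbmx by 1.95 and the zinc finger gene Zkscan3 by 1.91. The calls of these 5 genes held without each library in turn.

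The genes that rose were mostly those whose protein has a hydrophobic stretch. Each protein-coding gene was translated from its GENCODE coding sequence and searched for stretches of 19 residues with a mean Kyte-Doolittle hydropathy of at least 1.6, a length and hydrophobicity typical of a membrane-spanning helix. Such a stretch was found in 36.3% of the 12673 tested genes that could be classed, in 82.9% of those called higher and in 12.7% of those called lower. The first codons of 4 genes that rose and 2 that fell show what was searched. Sparcl1 and Cst3 encode proteins secreted in the brain, Apoe a secreted lipid carrier of astrocytes, and Sst the neuropeptide somatostatin, while Snap25 and Napb encode cytosolic-side parts of the vesicle fusion machinery. Each line gives codons 1 to 35, with the first stretch of 19 hydrophobic codons in capitals.
Sparcl1: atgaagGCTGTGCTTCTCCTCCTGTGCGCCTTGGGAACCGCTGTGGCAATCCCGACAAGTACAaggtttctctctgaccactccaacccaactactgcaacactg
Apoe: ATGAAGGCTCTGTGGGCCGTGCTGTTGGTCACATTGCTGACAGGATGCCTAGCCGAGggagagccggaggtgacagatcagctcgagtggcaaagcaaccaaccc
Sst: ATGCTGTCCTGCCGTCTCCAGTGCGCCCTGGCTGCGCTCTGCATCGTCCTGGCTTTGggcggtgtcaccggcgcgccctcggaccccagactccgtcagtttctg
Cst3: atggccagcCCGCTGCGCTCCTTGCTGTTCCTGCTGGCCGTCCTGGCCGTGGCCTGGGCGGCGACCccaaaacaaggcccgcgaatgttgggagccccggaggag
Snap25: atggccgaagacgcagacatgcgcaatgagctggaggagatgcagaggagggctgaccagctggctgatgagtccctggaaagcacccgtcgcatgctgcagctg
Napb: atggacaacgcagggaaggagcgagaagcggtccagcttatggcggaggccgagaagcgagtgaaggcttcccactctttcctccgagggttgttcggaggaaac

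These were read from GENCODE M21 on GRCm38, all but Snap25 on the minus strand. Snap25 lies on the plus strand, and its codons cover chr2:136756130-136758343 in 2 exons. The capitals mark codons 3 to 21 in Sparcl1 (chr5:104094717-104097762), 1 to 19 in Apoe (chr7:19697586-19698230), 1 to 19 in Sst (chr16:23890640-23890744) and 4 to 22 in Cst3 (chr2:148875273-148875377). Napb (chr2:148712748-148732363) and Snap25 have no such codons here. Sparcl1 had 3520, 3230 and 3080 CPM in SNF against 432, 417 and 610 CPM in WCH (log2 fold change 2.75). Apoe had 1560, 1530 and 793 CPM against 174, 166 and 192 CPM (2.87), and Cst3, the protease inhibitor cystatin C, had 3210, 3950 and 1430 CPM against 503, 448 and 520 CPM (2.55). Napb had 513, 491 and 520 CPM in SNF against 1090, 1190 and 1090 CPM in WCH and fell by 1.15 on the log2 scale (SE 0.218, adjusted p = 0.000302 in edgeR). In each of these 4 genes the groups were far apart, with the first 3 high and Napb low in every SNF library.

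Each class of genes with a stretch stood above the class without one. Of the 8073 tested genes without a stretch, 5.76% were called higher and 23.7% lower, and their median log2 fold change was −0.48. The 770 genes whose only stretch begins within the first 35 residues, as a signal peptide does, had 60.9% higher and 2.47% lower, with a median of 1.22. One stretch elsewhere went with a median of 0.38 (2117 genes, 37.6% higher, 10.4% lower), 2 to 5 stretches with 1.02 (1160 genes, 53.4% higher, 3.36% lower), and 6 or more with 1.33 (553 genes, 68.9% higher, 0.181% lower). The last class holds the channels, transporters and receptors that cross the membrane many times. These classes are descriptions over genes, which are not replicates, and no test was made on them. Over libraries, the mean log2(CPM + 1) of the 6-or-more class less that of the class without a stretch was 1.17, 1.5 and 0.99 in SNF and −0.29, −0.28 and −0.20 in WCH. The groups did not overlap (exact two-sided permutation p = 0.1, the smallest possible). Genes without a stretch made up 40.1%, 35.1% and 42.4% of the RNA outside the mitochondrial genome in SNF and 60.2%, 59.7% and 59.4% in WCH, while those with 6 or more made up 11.6% to 13% and 4.55% to 5.13%.

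**Figure D1:**
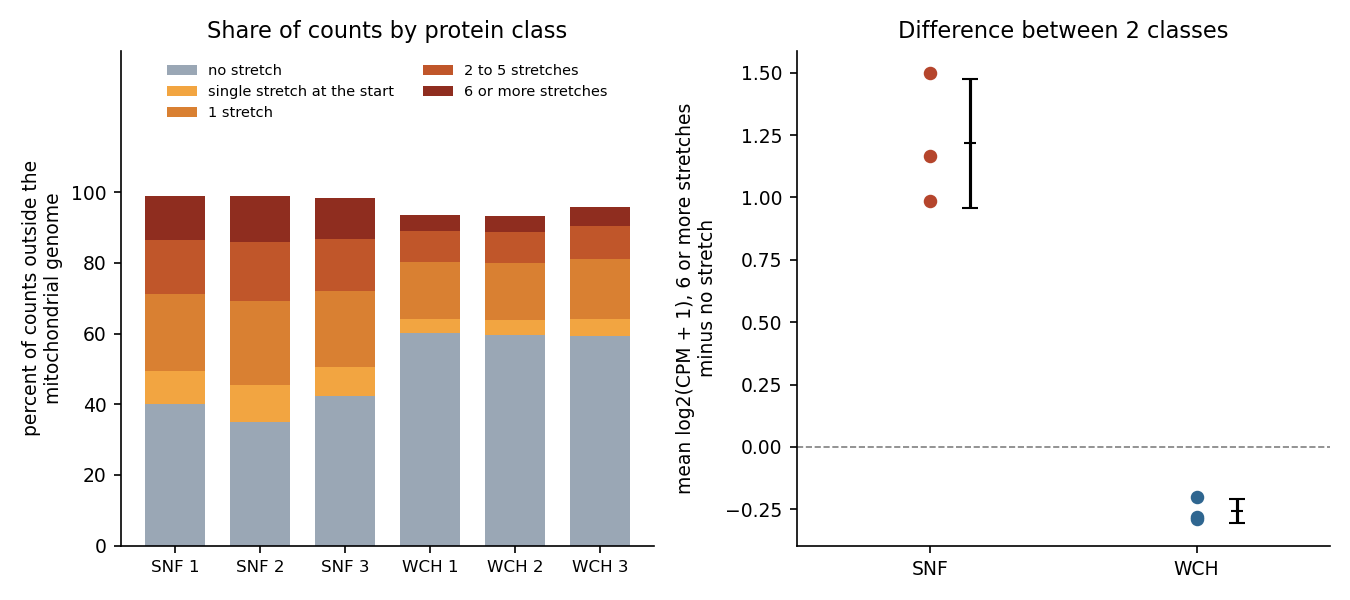
Left, share of the counts outside the mitochondrial genome held by each class of protein-coding gene, in percent, 1 stacked bar per library. Right, mean log2(CPM + 1) of genes with 6 or more hydrophobic stretches less that of genes with none, 1 point per library, with the mean and SD (n = 3) of each group: the SNF points lie between 0.99 and 1.5 and the WCH points between −0.29 and −0.20.

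The difference between the 6-or-more class and the class without a stretch, 1.81 between their median log2 fold changes, was also found among fewer genes. It was 1.8 with the markers of glia, vessels, blood and meninges left out. That kept 8036 of the 8073 genes without a stretch and 540 of the 553 with 6 or more. Among genes of the synapse lists alone it was 2.04. Within the synapse lists, 12 of 113 genes without a stretch were higher and 36 lower, whereas 42 of 43 with 2 to 5 stretches and 19 of 19 with 6 or more were higher. Transcripts of all lengths showed it: over 5 equal groups of genes by exon length, the medians ran from 1.25 to 1.41 in the 6-or-more class and from −0.50 to −0.40 in the class without a stretch. The class with 6 or more stretches had a median of 1.0 in the least abundant of 5 equal groups of genes by level, where 12.5% were called higher, and 1.53 in the most abundant group, where 95.1% were. Ryr3, an ER calcium channel with several spans, was among the exceptions, with 22.5, 39.4 and 42.6 CPM in SNF and 54.8, 61.1 and 42.3 CPM in WCH (log2 fold change −0.59, adjusted p = 0.149 in edgeR).

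Genes whose only stretch lies at the protein's end did not rise as the other classes with a stretch did. Tail-anchored proteins such as Vamp2 and Stx1a, SNARE proteins of the synaptic vesicle and of the release site, have their only stretch at the end, as their last 35 codons show, with the stretch of 19 codons in capitals.
Vamp2: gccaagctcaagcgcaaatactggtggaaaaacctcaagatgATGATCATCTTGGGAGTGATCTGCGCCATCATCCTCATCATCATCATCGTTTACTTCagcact
Stx1a: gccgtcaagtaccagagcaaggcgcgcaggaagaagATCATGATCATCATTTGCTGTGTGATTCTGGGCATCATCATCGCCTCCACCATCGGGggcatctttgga

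In Vamp2 (chr11:69089851-69090663, plus strand) these are codons 82 to 116, with capitals at 96 to 114. In Stx1a (chr5:135049075-135049901, plus strand) they are codons 254 to 288, with capitals at 266 to 284. Vamp2 had 750, 775 and 808 CPM in SNF and 1200, 1330 and 1060 CPM in WCH, and Stx1a had 63.8, 65.2 and 78.1 CPM against 140, 114 and 118 CPM, so both were low in every SNF library. Both were called lower, at −0.62 and −0.85, but the Vamp2 call was lost without each of the 6 libraries (−0.45 to −0.63) and that of Stx1a without SNF replicate 1 or 2 or WCH replicate 1 (−0.68, −0.74 and −0.75). Of the 201 tested genes whose only stretch ends within 30 residues of the protein's end, a class set up after the values were seen, 13.9% were called higher and 22.4% lower, with a median of −0.31. All tested genes had 21.1% higher and 17.1% lower, with a median of −0.24. Of the calls in the 201 genes, 21 higher and 14 lower held without each library in turn. With the 201 genes set apart, the other 1916 genes with 1 stretch outside the start had a median of 0.55, and the 8073 genes without a stretch had −0.48. Of 35 SNARE genes, grouped after the values were seen, 2 were higher (1 without SNF replicate 2 or WCH replicate 1 or 2) and 13 lower (median −0.58), with 2, 2 and 7 lower without SNF replicate 1, 2 or 3 and 7, 4 and 6 without WCH replicate 1, 2 or 3.

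**Figure D2:**
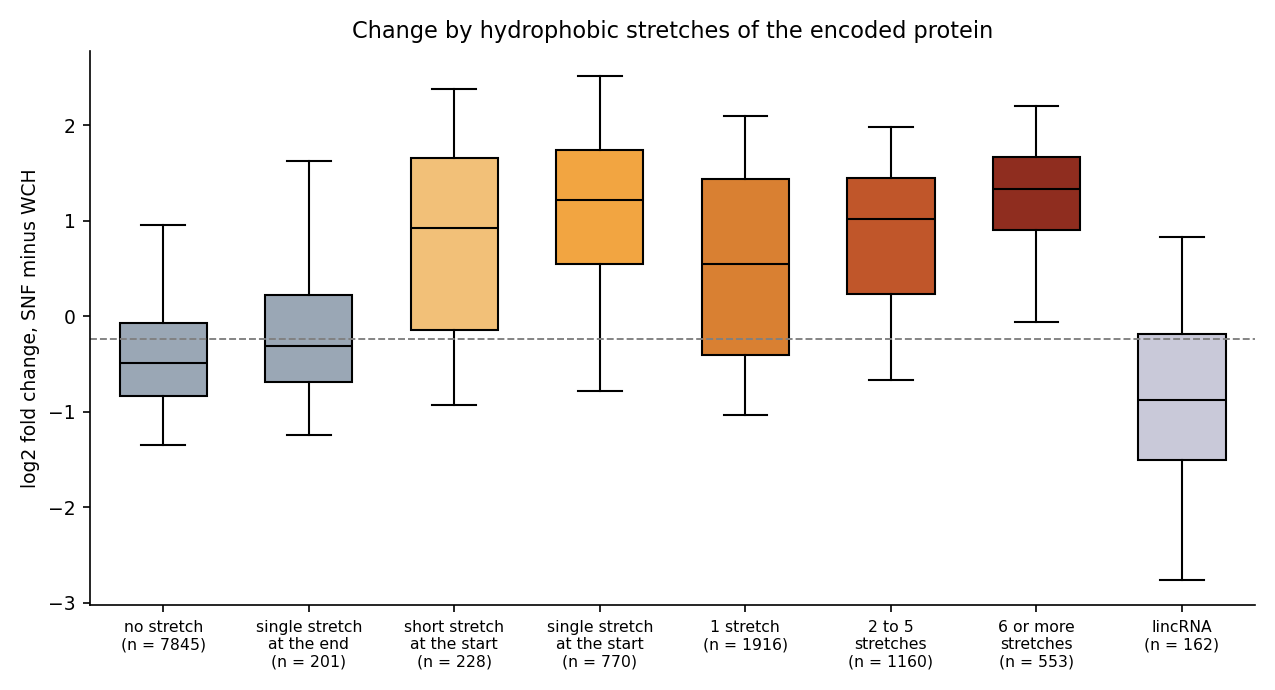
Log2 fold change of SNF against WCH for the tested genes of each class, by hydrophobic stretches and, at the right, for lincRNA genes; boxes span the quartiles with a line at the median, whiskers run from the 5th to the 95th percentile, and the dashed line is the median of all tested genes, −0.24. Classes with a stretch at the start or with several stretches lie above the line, and genes without a stretch, tail-only genes and lincRNAs lie at or below it.

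Presynaptic mRNAs divided by the stretch of the protein. Of 47 synaptic vesicle and release genes, 19 were higher and 22 lower, with a median of −0.51. The 22 with a stretch at the start or across the membrane had 19 higher and 2 lower (median 1.57), the 2 being Snap91 and Synj1, which encode endocytic proteins known as cytosolic. The 25 without a stretch or with one only at the tail had 20 lower (median −0.80). The higher count was 18 or 19 without each library in turn, and the lower count was 9, 10 and 8 without SNF replicate 1, 2 or 3 and 15, 11 and 11 without WCH replicate 1, 2 or 3. Integral vesicle proteins led the higher side. Syp (chrX:7638471-7653256), the vesicle membrane protein synaptophysin, had 2920, 4170 and 2860 CPM in SNF and 687, 745 and 657 CPM in WCH (log2 fold change 2.25, SE 0.289, adjusted p = 6.86e-06 in edgeR). Slc32a1, which loads GABA into vesicles, had 123, 147 and 67.8 CPM against 22.9, 19.3 and 22.9 CPM (2.37). Slc17a7, which loads glutamate, had 1370, 1890 and 914 CPM against 491, 496 and 496 CPM (1.49). Sv2a and Sv2b, vesicle glycoproteins, rose by 1.82 and 1.91, the calcium sensor gene Syt1 by 1.67 and the vesicle protein gene Syngr1 by 1.25 on the log2 scale. For each of these genes every SNF library lay above every WCH library.

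Cytosolic partners of the same vesicles went the other way. Sh3gl2, endophilin A1 of vesicle endocytosis, had 266, 269 and 265 CPM in SNF and 552, 581 and 569 CPM in WCH and fell by 1.09 on the log2 scale. Syn2, a synapsin on the vesicle surface, had 185, 159 and 196 CPM against 353, 310 and 321 CPM and fell by 0.86. Rab3c, a vesicle GTPase, fell by 1.08, and these 3 calls held without each library in turn. Snap25 (chr2:136713453-136782428), which anchors to the membrane by lipid chains, had 7240, 7760 and 8340 CPM in SNF and 14500, 16000 and 14900 CPM in WCH (log2 fold change −0.96, adjusted p = 0.00985 in edgeR). Its call was lost without SNF replicate 1, 2 or 3 (−0.79, −0.89 and −0.86) and without WCH replicate 2 or 3 (−0.83 and −0.89), though the groups did not overlap. The active zone list of 22 genes, mostly large cytosolic scaffolds, had 4 higher and 5 lower, and the lower count was 0, 0 and 4 without SNF replicate 1, 2 or 3 and 5, 0 and 1 without WCH replicate 1, 2 or 3 in edgeR (with 3, 4 and 4 at an unadjusted p under 0.05 in the 3 fits that gave 0, and 3 lower in DESeq2 with all libraries). Bsn, the scaffold bassoon, had 1470, 1300 and 1120 CPM in SNF and 824, 680 and 731 CPM in WCH (0.80, adjusted p = 0.0188 in edgeR, lost without SNF replicate 1 at 0.83 and without WCH replicate 2 or 3 at 0.83 and 0.88).

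**Figure D3:**
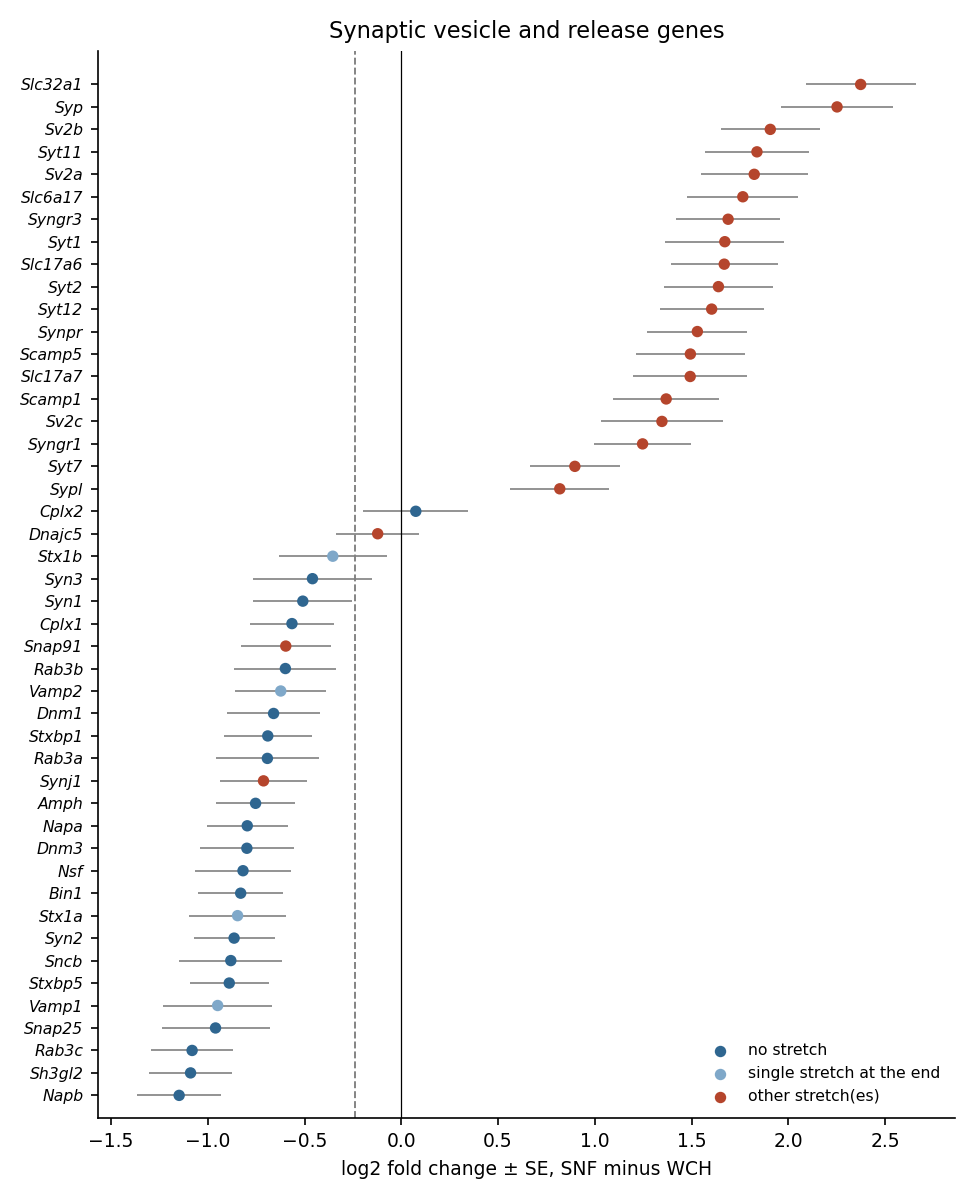
Log2 fold change of SNF against WCH with its SE for 46 of the 47 synaptic vesicle and release genes, coloured by hydrophobic stretch class, with the median of all tested genes as a dashed line. Genes with a stretch at the start or across the membrane, such as Slc32a1 and Syp, fill the upper end, and genes without one fill the lower end.

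Subunits of single complexes split as well. The V-ATPase is the proton pump that acidifies vesicles and lysosomes: its V0 part lies in the membrane and its V1 part on the cytosolic side. The subunits were divided so after the values were seen. Of 9 V0 and accessory genes, 6 were higher (5 to 7 without each library in turn, median 1.39), and of 10 V1 genes 6 were lower (median −0.76). The V1 count was 3, 3 and 3 without SNF replicate 1, 2 or 3 and 4, 3 and 3 without WCH replicate 1, 2 or 3. Atp6ap1, an accessory membrane subunit, had 1200, 1540 and 1240 CPM in SNF and 302, 277 and 359 CPM in WCH (2.09), and Atp6v0a1, the large V0 subunit, had 926, 1210 and 676 CPM against 301, 284 and 299 CPM (1.67). Atp6v1b2, a catalytic-head subunit of V1, had 268, 246 and 296 CPM against 564, 550 and 574 CPM and fell by 1.06 on the log2 scale. Atp6v0d1, a V0 subunit that sits on the cytosolic face and has no stretch, had 165, 185 and 162 CPM against 221, 217 and 245 CPM and was not called. The first 2 subunits were thus high and the last 2 low in every SNF library.

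Ion channel genes divided in a like way. Of 27 sodium and calcium channel genes, 21 were higher and 3 lower, and of 75 potassium and HCN channel genes 51 were higher and 3 lower (medians 1.24 and 1.15), the last count being 1 without SNF replicate 1. Scn8a (chr15:100869858-101045938), a sodium channel pore of the axon initial segment and nodes, had 1830, 2350 and 1820 CPM in SNF and 515, 543 and 574 CPM in WCH (1.88). Scn2a and Scn1a, the other main pores of cortical neurons, rose by 1.67 and 1.65, Cacna1a, the P/Q-type calcium channel pore, by 1.53, and Cacna2d2, an extracellular calcium channel subunit, by 1.97. Kcnj10 and Kcnj16, potassium channel partners in astrocytes, rose by 2.43 and 2.68. Cacnb4, the cytosolic beta subunit that holds calcium channel pores at the surface, had 367, 266 and 417 CPM in SNF and 755, 838 and 916 CPM in WCH and fell by 1.26, and Cacnb2 fell by 1.33. Kcnab1, a cytosolic potassium channel subunit, had 51.1, 36.5 and 41.1 CPM against 109, 94.8 and 109 CPM and fell by 1.28. Of 11 cytosolic channel subunits, gathered after the values were seen, 6 were lower (median −0.80; 4, 5 and 4 without SNF replicate 1, 2 or 3, 5, 5 and 6 without WCH replicate 1, 2 or 3). The 1 that was higher was Kcnip3, a calcium-binding partner of potassium channels, at 404, 431 and 432 CPM against 169, 161 and 216 CPM (1.22).

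**Figure D4:**
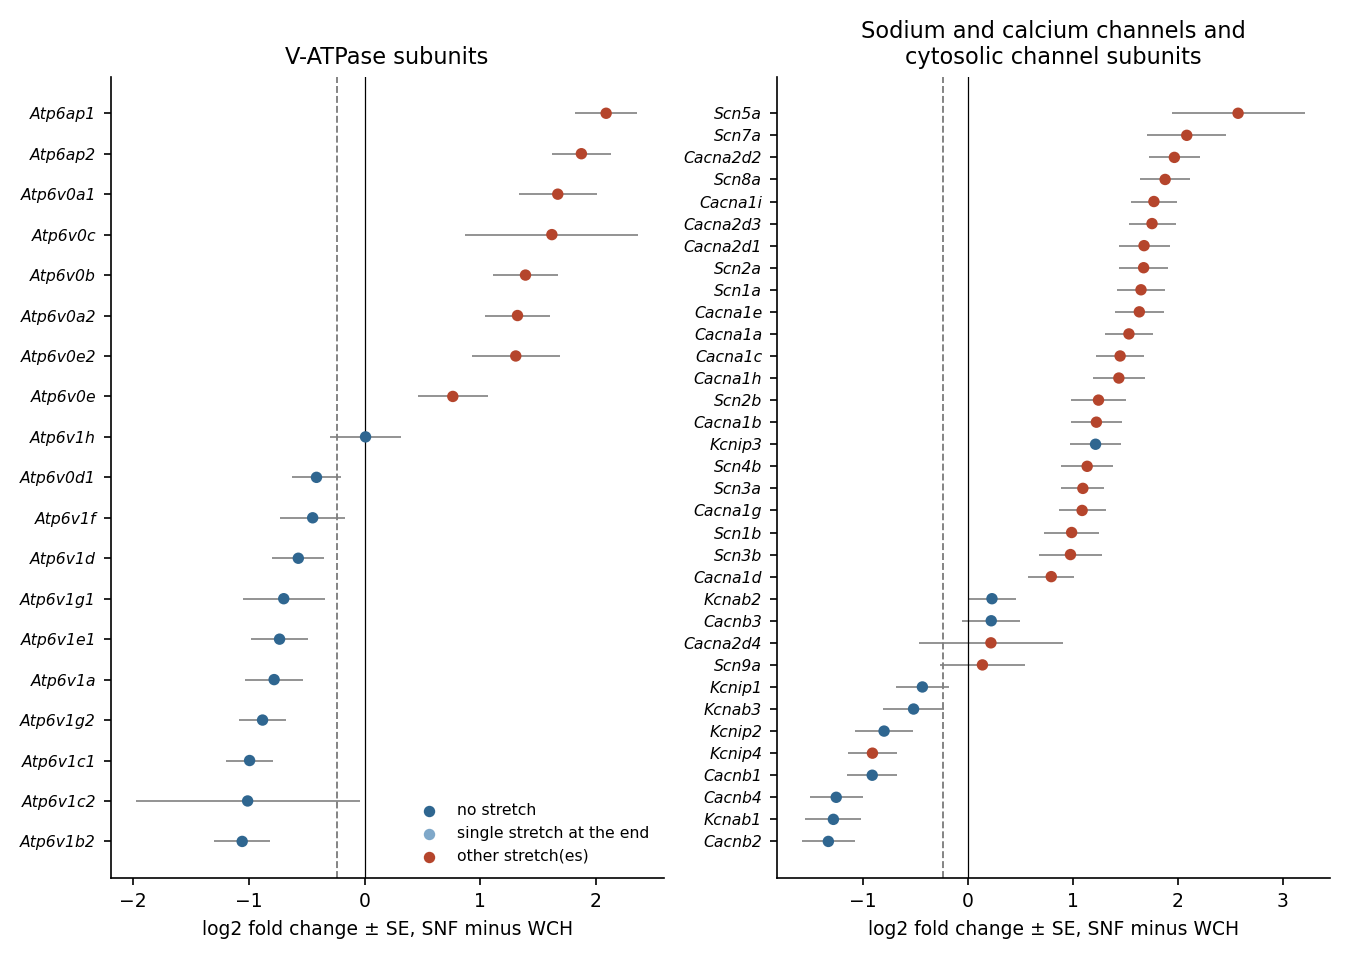
Log2 fold change of SNF against WCH with its SE for V-ATPase subunits (left) and for sodium and calcium channel genes and cytosolic channel subunits (right), coloured by hydrophobic stretch class. V0 and accessory subunits and pore-forming channel genes lie mostly above 0, and V1 and cytosolic channel subunits mostly below it.

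Receptors, adhesion molecules and pumps of the synaptic membrane rose almost as whole groups. Of 35 glutamate receptor genes 33 were higher (median 1.38), of 16 GABA receptor genes all 16 (1.59), of 46 synaptic adhesion genes 44 (1.52) and of 19 ion pump genes 15 (1.68). Without each library in turn the counts were 30 to 34, 12 to 16, 43 to 44 and 13 to 15. Grin1, the obligatory NMDA receptor subunit, had 1400, 1880 and 1230 CPM in SNF and 317, 266 and 287 CPM in WCH (2.37). Gria1 and Gria2, AMPA receptor subunits, rose by 1.30 and 1.37, and Grm3, a glutamate receptor that signals through G proteins, by 1.89. Gabbr2, of the GABA-B receptor, had 1710, 2260 and 1590 CPM against 463, 563 and 643 CPM (1.74). Nlgn3, a postsynaptic neuroligin, rose by 1.70 on the log2 scale. L1cam, an axonal adhesion protein, had 950, 1380 and 1050 CPM against 177, 191 and 236 CPM (2.48). Atp1b1, the beta subunit of the sodium pump, had 5530, 7130 and 5740 CPM against 1290, 1490 and 1890 CPM (1.98). For all of these genes the groups did not overlap.

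Wider surface families did likewise. Higher calls were made for 55 of 69 transporter genes of the Slc1 to Slc12 families (48 to 55 without each library in turn), 96 of 143 G protein-coupled receptor genes (67 to 98), 32 of 34 protocadherin genes, 56 of 66 axon guidance genes and 21 of 27 tetraspanin and claudin genes. Their medians were 1.61, 1.25, 1.8, 1.45 and 1.47. Slc1a3, a glutamate transporter of astrocytes, had 1280, 1020 and 1220 CPM in SNF and 199, 153 and 277 CPM in WCH (2.49). Plxnb1, a semaphorin receptor, rose by 2.55, the secreted axon guidance gene Slit1 by 2.26 and the tetraspanin gene Cd81 by 2.09.

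Scaffolds, motors and mRNAs known from dendrites, which encode cytosolic proteins for the most part, were mixed. Of 44 postsynaptic scaffold and signalling genes, 8 were higher and 5 lower (median −0.12). Both shares are below those of all tested genes, 21.1% higher and 17.1% lower. The higher count was 4, 6 and 7 without SNF replicate 1, 2 or 3 and 6, 7 and 5 without WCH replicate 1, 2 or 3, and the lower count 2, 2 and 3 and 4, 2 and 2. Shank1 (chr7:44310253-44360572), a master scaffold of the postsynaptic density whose mRNA is found in dendrites, has no stretch and yet had 2010, 2070 and 1560 CPM in SNF against 632, 721 and 522 CPM in WCH (1.59). Shank3 and Dlgap3, scaffolds of the same layer, rose by 1.28 and 1.04. Dlg4, the PSD-95 gene, was at 0.09 and was not called. Camk2a, the kinase whose mRNA is the textbook dendritic message, had 5210, 5110 and 5490 CPM against 2450, 3030 and 2150 CPM (1.05, adjusted p = 0.0349 in edgeR), and the call was lost without SNF replicate 1, 2 or 3 (1.17, 1.14 and 1.17) or WCH replicate 1 or 3 (1.02 and 1.03). Homer1, a scaffold with an activity-regulated short form, was called lower (−1.10), a call lost without SNF replicate 1 or 2 (−0.82 and −0.83) or WCH replicate 2 or 3 (−1.02 and −0.83). Of 32 dendritically localized mRNAs, 13 were higher and 4 lower (median 0.59). Without SNF replicate 1, 2 or 3 and WCH replicate 1, 2 or 3 the higher count was 10, 10, 14, 9, 13 and 9, and the lower count 1, 1, 2, 3, 1 and 1.

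Motor genes were mixed, with several heavy chains high in SNF. Kif5a (chr10:127225696-127263348), a neuronal kinesin with no stretch, had 4230, 2970 and 3770 CPM in SNF and 1140, 1080 and 1050 CPM in WCH (1.75). Kif5c rose by 1.28 and Dync1h1, the dynein heavy chain, by 1.58. Over the 49 kinesin and dynein genes 8 were higher (7 or 8 without each library in turn) and 13 lower (2, 2 and 2 without SNF replicate 1, 2 or 3, and 6, 2 and 3 without WCH replicate 1, 2 or 3).

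The 23 tested genes of neuropeptides, granins and the enzymes that process them in dense-core vesicles, a group gathered after the values were seen, were all higher (median 1.92, all 23 without each library in turn). Sst (chr16:23889573-23890958) had 899, 995 and 379 CPM in SNF and 125, 123 and 186 CPM in WCH (2.39). Npy and Vip, peptides of other interneurons, rose by 1.77 and 1.5, and Cck, made by both interneurons and pyramidal cells, had 1590, 2590 and 1450 CPM against 442, 522 and 726 CPM (1.74). The granins Scg2 and Chga, cargo of dense-core vesicles, rose by 2.45 and 2.40, and Vgf, a secreted activity-regulated peptide precursor, by 2.59. The SNF values of every one of these genes lay above its WCH values.

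Markers of neuron classes followed the protein as well. Of 17 inhibitory neuron markers, the 8 with a stretch were all higher (median 1.86), and the 9 without one had a median of −0.70. Those 9 include the 2 called lower, Gad2 and Dlx1. In edgeR neither was called once any 1 of the 6 libraries was left out, where 0 to 4 of the list were lower at an unadjusted p under 0.05, and DESeq2 with all libraries called 0 lower. Gad1 and Gad2 encode the cytosolic enzymes that make GABA. Gad1 had 179, 148 and 140 CPM in SNF and 242, 197 and 237 CPM in WCH, and Gad2 320, 339 and 266 CPM against 601, 481 and 415 CPM, so that both were low in every SNF library while Slc32a1, of the same neurons, was high in every one. Of 15 excitatory neuron markers 3 were higher and 6 lower (median −0.53), with 3 lower without SNF replicate 2. The transcription factor gene Neurod6 had 28.6, 38.8 and 55.5 CPM against 111, 121 and 135 CPM and fell by 1.57, and Neurod2 fell by 1.21. Of 20 general neuron markers 4 were higher in each fit, and 5 were lower (1, 2 and 1 without SNF replicate 1, 2 or 3, and 3, 1 and 1 without WCH replicate 1, 2 or 3). Summed over each list, neuron markers held 30000 to 36500 CPM in SNF and 26000 to 28200 CPM in WCH, excitatory markers 8170 to 8790 and 4450 to 5260 CPM, and inhibitory markers 4340 to 7250 and 2110 to 2510 CPM. A sum mostly follows the most abundant members of its list, so it can rise where the list's median is below 0.

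The machinery of the secretory pathway rose where it lies within the membrane system or its lumen. Of 40 ER chaperone and folding genes 35 were higher (33 to 36 without each library in turn, median 1.59), of 39 translocon and glycosylation genes 29 (26 to 31, 1.26), of 103 Golgi enzyme genes 78 (53 to 81, 1.10) and of 51 lysosome genes 49 (44 to 49, 1.79). Hspa5, the lumenal chaperone BiP, had 486, 646 and 854 CPM in SNF and 101, 104 and 206 CPM in WCH (2.28). Calr and Pdia3, lumenal folding factors, rose by 2.30 and 2.33, and Rpn1, of the enzyme that adds N-glycans, by 2.01. Sec61a1, the pore of the translocon, rose by 1.76. Its small tail-anchored partner Sec61b had 9.12, 7.87 and 9.76 CPM against 8.83, 11.6 and 12.6 CPM (−0.30, not called). Coat proteins, which work on the cytosolic face of the same membranes, did not follow. Of 31 COPI and COPII genes 3 were higher and 6 lower (median −0.42), the lower share being near the 17.1% of all tested genes. The lower count was 1, 1 and 2 without SNF replicate 1, 2 or 3. It was 3, 1 and 1 without WCH replicate 1, 2 or 3. Mia3, a membrane protein that helps load large cargo into COPII coats, rose by 1.84, and the GTPase gene Sar1b by 1.11.

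Secreted and lipid genes rose too. Higher calls were made for 46 of 51 extracellular matrix genes (43 to 45 without each library in turn, median 2.04), 12 of 15 complement and antigen presentation genes (2.08) and 21 of 30 cholesterol and fatty acid synthesis genes (19 to 21, 1.37), most of whose enzymes sit in the ER membrane. Reln, a matrix protein secreted by interneurons, had 386, 531 and 343 CPM in SNF and 67.8, 74.7 and 76.1 CPM in WCH (2.53). Sparc, a matrix-binding protein of glia and vessels, had 2480, 1600 and 1030 CPM against 194, 150 and 200 CPM (3.23). Scd1, a desaturase of the ER membrane, had 636, 432 and 552 CPM against 88.4, 76.5 and 97.5 CPM (2.63). In all 3 the groups were well apart.

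**Figure D5:**
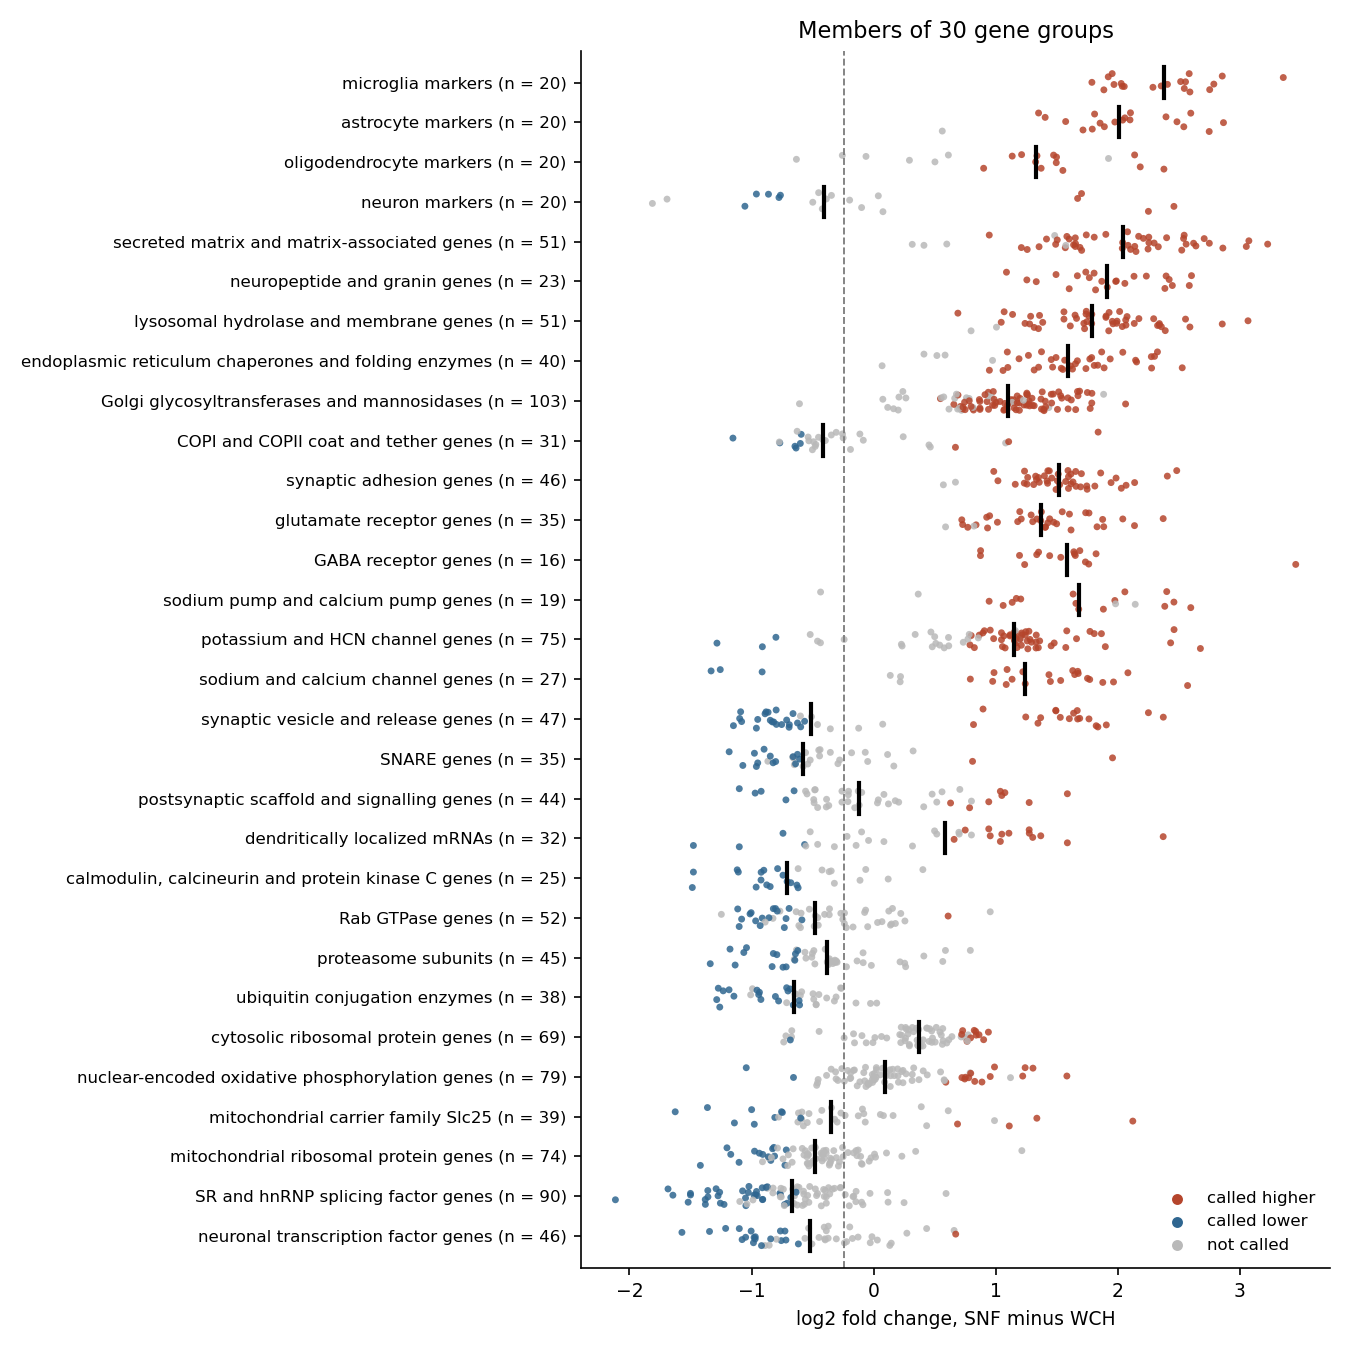
Log2 fold change of SNF against WCH for each tested member of 30 gene groups, 1 dot per gene coloured by its call, with a bar at the group's median and a dashed line at the median of all tested genes, −0.24. Groups of membrane, ER, lysosome and secreted proteins lie to the right, and most groups of nuclear and cytosolic proteins lie around or left of the dashed line.

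Markers of glia and of fibroblasts also rose. Of 20 microglia markers all 20 were higher (19 or 20 without each library in turn, median 2.38), of 20 astrocyte markers 19 (2.01), of 20 oligodendrocyte markers 13 (1.33), of 13 oligodendrocyte precursor markers 7, and of 12 fibroblast and meninges markers 11 (8 to 11, 2.28). Of 9 mural cell markers 5 were higher (median 1.77). Of 13 endothelial markers 3 were higher (median 1.76), a share near the 21.1% of all tested genes. Slc1a2, the astrocyte glutamate transporter, had 34300, 24600 and 27600 CPM in SNF and 4260, 3800 and 4810 CPM in WCH (2.75). Aldoc and Aldh1l1, cytosolic enzymes of astrocytes with no stretch, rose by 1.89 and 1.41, and Gfap, their filament protein, had 94.2, 75.9 and 111 CPM against 37.4, 37.9 and 35 CPM (1.35). Among oligodendrocyte markers the 14 genes with a stretch had 13 higher (median 1.42), and the 6 without one had a median of 0.12. Mog, a membrane-spanning protein of the myelin surface, had 195, 311 and 133 CPM against 79.6, 90.5 and 75.9 CPM (1.37), whereas Mobp, a cytosolic myelin protein, had 453, 422 and 487 CPM against 476, 559 and 386 CPM (−0.06, not called) and Cnp, a myelin enzyme, was at 0.29 (not called). Of 7 choroid plexus markers 4 were higher, a count that depended on several single libraries. It was 3, 1 and 4 without SNF replicate 1, 2 or 3. Without WCH replicate 1, 2 or 3 it was 2, 4 and 1. Ttr had 1810, 3370 and 587 CPM in SNF against 291, 395 and 320 CPM in WCH.

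Summed over its list, astrocyte markers held 35300 to 47600 CPM in SNF and 5870 to 7430 CPM in WCH, oligodendrocyte markers 18200 to 24900 and 6960 to 8680 CPM, microglia markers 1000 to 1970 and 277 to 316 CPM, precursor markers 2200 to 2570 and 650 to 720 CPM, and fibroblast markers 521 to 1450 and 159 to 206 CPM. Endothelial markers held 160 to 227 and 59.0 to 67.5 CPM, mural markers 192 to 242 and 64.7 to 86.6 CPM, choroid plexus markers 605 to 3450 and 315 to 420 CPM and blood markers 40.6 to 55.3 and 60.6 to 81.2 CPM. Such sums mostly follow their most abundant members: Slc1a2 held most of the astrocyte sum and Ttr most of the choroid plexus sum in both groups. No marker tested was at 0 in all 6 libraries. Hbb-bs, the red cell globin, had 7.3, 4.5 and 2.57 CPM against 22.2, 23.9 and 18.4 CPM (−2.19). Whether these cells' RNA has a part in the values of other gene groups was not tested. The difference between protein classes was 1.8 without the markers, but few genes were removed. Of the genes with 6 or more stretches 540 of 553 stayed, so that value is no test of it.

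Several cytosolic gene groups had more lower than higher calls, although the ribosomal protein list had a median of 0.38, above that of all genes. Lower calls were made for 18 of 38 ubiquitin pathway genes (median −0.65), 16 of 25 calmodulin and protein kinase C pathway genes (−0.71), 16 of 52 Rab GTPase genes (−0.48), 14 of 40 actin cytoskeleton genes, 13 of 45 proteasome genes (−0.38), 9 of 34 heat shock genes and 4 of 6 14-3-3 genes (−0.71). These counts depended on the libraries. Without SNF replicate 1, 2 or 3 and WCH replicate 1, 2 or 3, the ubiquitin count was 8, 7, 10, 14, 9 and 7, the calmodulin count 6, 7, 9, 14, 8 and 7, the Rab count 6, 6, 9, 12, 9 and 7 and the proteasome count 2, 1, 4, 11, 3 and 3. The actin count was 6, 7, 7, 11, 8 and 5, the heat shock count 2, 2, 4, 8, 4 and 2 and the 14-3-3 count 2, 2, 2, 3, 2 and 2. Calm2, a calmodulin gene, had 634, 621 and 820 CPM in SNF and 1880, 1850 and 2040 CPM in WCH and fell by 1.48 on the log2 scale. Ppp3r1, the regulatory subunit of calcineurin, had 420, 398 and 490 CPM against 923, 963 and 950 CPM and fell by 1.12. Hpca, the calcium sensor hippocalcin, fell by 1.11, Tpm1, a tropomyosin, by 1.21, and Ywhah, a 14-3-3 protein, by 1.31. These 5 calls held without each library in turn.

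Groups of nuclear and of RNA-binding proteins were lower in part. Of 353 zinc finger genes 100 were lower and 3 higher (1 higher without WCH replicate 3, median −0.72), of 90 splicing genes 35 were lower (−0.67), and of 46 neuronal transcription factor genes 18 (−0.52). Of 45 genes for cytoplasmic RNA-binding and microRNA pathway proteins, 19 were lower (−0.56). In the same order of libraries left out, the zinc finger count was 29, 37, 58, 68, 36 and 42, the splicing count 18, 18, 29, 27, 20 and 23, the RNA-binding count 11, 7, 15, 13, 12 and 12 and the transcription factor count 10, 10, 15, 19, 11 and 9. Prpf4b, a kinase of the spliceosome, had 19.5, 16.9 and 34.4 CPM in SNF and 63.7, 76.2 and 64.1 CPM in WCH and fell by 1.52. Snrnp70, of the U1 particle, fell by 1.64, Cpeb1, which regulates poly(A) tails in dendrites, by 1.71, and Bcl11a, a transcription factor of cortical neurons, by 1.10. Of 24 immediate early genes 2 were higher and 8 lower, the lower count being 0, 3 and 1 without SNF replicate 1, 2 or 3 and 7, 0 and 0 without WCH replicate 1, 2 or 3 in edgeR (with 4, 5 and 7 at an unadjusted p under 0.05 in the 3 fits that gave 0, and 4 lower in DESeq2 with all libraries). Bdnf and Nptx2, whose proteins are secreted, rose by 1.11 and 1.54.

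Long noncoding RNAs had low medians, with no larger share of lower calls than all genes. Over the 162 tested lincRNA genes the median was −0.87, with 23 lower and 1 higher, and over 60 antisense genes it was −0.95 with 8 lower. Those lower calls are 14.2% and 13.3% of each class, below the 17.1% of all tested genes, and 4 and 2 of them held without each library in turn. Without a stated strand setting, antisense reads cannot be told from those of the partner gene. Malat1 (chr19:5795690-5802672), an abundant RNA of nuclear speckles, had 1460, 2380 and 5770 CPM in SNF and 41800, 47100 and 27600 CPM in WCH (−3.60, adjusted p = 0.0243 in edgeR). The call was lost without SNF replicate 2 (−3.38) and without WCH replicate 1 (−3.55). SNF replicate 3, which had the most reads in no annotated gene among SNF libraries, also held the most Malat1 of the 3, and WCH replicate 3 the least of its group. Ftx and Snhg20, long noncoding RNAs, fell by 2.08 and 2.05.

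Mitochondrial genes split by genome. The 26 tested mitochondrially encoded genes were all higher (21 to 25 without each library in turn), with a median of 3.35. mt-Co1, a cytochrome oxidase subunit, had 75000, 56300 and 64500 CPM in SNF and 4020, 6330 and 7960 CPM in WCH (3.42). Nuclear genes for mitochondrial proteins stood lower on the same scale. Of 79 respiratory chain genes 14 were higher and 2 lower (median 0.09), and of 74 mitochondrial ribosomal protein genes 14 were lower (−0.48). Those counts of 14 are near the shares of all tested genes, 21.1% higher and 17.1% lower. Of 39 Slc25 carrier genes 4 were higher (2 without SNF replicate 1 or 2 or WCH replicate 1) and 9 lower (−0.35). The 2 lower respiratory chain calls came to 0 in edgeR without SNF replicate 1, 2 or 3 or WCH replicate 2 or 3, with 1 or 2 at an unadjusted p under 0.05 and 1 in DESeq2 with all libraries. Without SNF replicate 1, 2 or 3 and WCH replicate 1, 2 or 3 the higher respiratory chain count was 11, 11, 18, 7, 10 and 15, the lower ribosomal count 2, 2, 6, 9, 5 and 2, and the lower carrier count 4, 6, 4, 8, 4 and 5. Slc25 carriers span the inner mitochondrial membrane but are made on free ribosomes and carry no ER signal. The 24 that had a stretch by this search had 3 higher and 4 lower, with a median of −0.18. Slc25a36, a nucleotide carrier, had 29.8, 30.9 and 31.9 CPM against 85.2, 93.1 and 108 CPM and fell by 1.63. On the other side, Cox6a1 and Cox4i1, nuclear-encoded cytochrome oxidase subunits, had 937, 855 and 829 CPM against 311, 223 and 340 CPM (1.58) and 478, 515 and 347 CPM against 198, 191 and 185 CPM (1.22).

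Of 69 cytosolic ribosomal protein genes 10 were higher (median 0.38), a share below the 21.1% of all tested genes. The higher count was 6, 7 and 11 without SNF replicate 1, 2 or 3. It was 6, 3 and 8 without WCH replicate 1, 2 or 3. These values are given as uncertain: such genes are known to have many pseudogenes, and how shared reads were counted was not tested. Their median turns negative with the plain total outside the mitochondrial genome, as do those of the respiratory chain and active zone lists. Of 65 translation factor genes 15 were lower, with 5, 5 and 5 without SNF replicate 1, 2 or 3 and 10, 7 and 6 without WCH replicate 1, 2 or 3.

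The authors' deposited table for the band lists 3508 genes, of which 3465 were tested here. That table was deposited with these same libraries and holds only positive log2 fold changes, the smallest being 0.471. Like signs and shared genes are therefore no independent check. All 3465 had a positive log2 fold change here, and 79.5% were called higher. Of the genes called higher here, 99.3% are in that table. In the authors' deposited table Itgam has a log2 fold change of 3.77, Slc32a1 of 2.76, Syp of 2.47 and Shank1 of 1.83. A hydrophobic stretch was found in 78.5% of its genes tested here.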

How the data were processed

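RNA was sequenced from 12 libraries in 4 groups of 3, of which SNF and WCH are compared. Per the labels' protocols, cDNA was made with a NuGEN kit, and the submitters' processing notes name Bowtie2, STAR, HTSeq and edgeR. Their versions, the build and the strand setting were not given in the sources used here. The authors deposited whole-number counts per gene, and 5 summary lines per library were dropped. Log2 fold changes, p-values and a likelihood ratio score stand in tables the authors deposited, per the file headers, and the SNF table was set beside the results.

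Symbols of 28842 identifiers came from GENCODE M21 (GRCm38) and 13 from the authors' tables, and 1024 had none. All 12 libraries were fitted in edgeR 4.0.16 (R 4.3.3) by group, with library sizes and TMM factors from genes outside the mitochondrial genome, the default expression filter and the robust quasi-likelihood test. A gene was called at a p under 0.05 after Benjamini-Hochberg adjustment over all tested genes, and every p without another name is that one. Alternatives were DESeq2 1.42.0, other scalings and filters, the 6 libraries alone, a replicate block and leaving out each library. Proteins were translated from GENCODE coding sequences, in place of the RefSeq proteins planned, and a short signal peptide can be missed.

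Genes, lists and tests were chosen with earlier results of these data known. By rule, candidates for naming were the 8 protein-coding genes of at least 20 CPM at each end among called genes whose groups do not overlap, 4 noncoding genes in each direction, up to 4 per list in its main direction and 2 in the other, the 6 most abundant per group and a few checks. The text does not name all of these. Some genes that it names were chosen outside the rule, after their values were seen. Python 3.11.15 was used for the classes. Values of some single genes are not reported here.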

Additional observations from a re-analysis of the deposited data

How the results depend on the processing

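Counts of higher and lower genes depended on the scaling and on single libraries. Against 2774 higher and 2250 lower genes, 11 were higher and 11438 lower with the mitochondrial genes kept in a plain total, 4850 were lower with the plain total outside the mitochondrial genome, and 1429 were lower with median-of-ratios factors. Leaving out 1 library gave 784 to 1549 lower and 2307 to 2921 higher genes. The cause was not tested. With a replicate block, 2863 were higher and 2493 lower, and 5003 of the 5024 calls were kept. The main fit took the spread from all 12 libraries, those of the pull-down included. A fit of only the SNF and WCH libraries called 3465 genes higher and 2532 lower of 11982 tested, and kept 4895 of the 5024 calls. Deviations of same-numbered SNF and WCH libraries correlated at 0.172, 0.0839 and 0.0634, not all over 0.1, so the numbers were not taken as pairs, though each library correlated best with its own number. Gene values were compared across settings after subtracting the median of all genes, and on that scale no called gene that the text names changed sign. A scaling moves all genes by nearly the same amount, so over the scalings that comparison was no test. For the same reason a scaling can hardly alter the difference between the protein classes. Over the filters and libraries left out, that difference ran from 1.63 (without SNF replicate 2) to 1.91 (without SNF replicate 3), against 1.81. With 1819853 to 2111322 counts per SNF library outside the mitochondrial genome, low genes were seldom called: 12.5% of the genes with 6 or more stretches in the least abundant group.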
